A study of Mus musculus with 7 samples.

Results

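The genes described here make up the identity and receptor signalling programme of the B cell, the most abundant lymphocyte of the mouse spleen. They were the table rows whose symbol was among 39 listed genes and whose mean over the 7 libraries was at least 1 FPKM (fragments counted on a transcript, divided by its length and by the library's mapped fragments). Of the 39, 38 were present under the listed symbol, and all 38 met the minimum, among 17920 genes in the table and 11378 with a mean of at least 1 FPKM. The remaining symbol, Faim3, is an older name of Fcmr in RefSeq, and that row is given apart below. Mean levels over the 7 libraries ran from 6.79 FPKM for S1pr3 to 631 FPKM for Ly6d, and Cd79a, Cd79b, Ms4a1 and Cd22, which define B cells, were present in every library.

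The study asked how loss of GdX (UBL4A), a small ubiquitin-like protein encoded by the X-linked gene Ubl4a, changes the splenic response to lipopolysaccharide (LPS), a component of the outer membrane of Gram-negative bacteria. Mice of 8 weeks with the strain label C57BL/6 received 20 mg/kg LPS by intraperitoneal injection, and RNA was extracted from crushed spleen. Spleens were taken 90 min or 6 h later, from wild-type mice (n = 2 at each time) and GdX-deficient mice (n = 2 at 90 min and n = 1 at 6 h). The deficient genotype is written GdX-/- in the sample labels and GdX-/Y in the protocol, and all 7 libraries came from spleen after LPS, so no level before LPS enters here. The labels give a replicate number but do not state that replicates came from separate mice, so p-values measure the spread between these libraries, which may be technical.

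A B cell senses antigen through a membrane immunoglobulin coupled to the CD79A and CD79B chains, whose cytoplasmic tails are phosphorylated by LYN and BLK and then recruit SYK. SYK, the adaptor BLNK and the kinase BTK activate phospholipase C gamma 2, while CD22, CD72 and other surface proteins damp the signal and CD21, encoded by Cr2, enhances it. PAX5 and EBF1 hold B-cell identity. Follicular B cells recirculate and carry CD23 (Fcer2a), whereas marginal zone B cells border the blood sinus, carry high CD21 and CD1d, and leave their position within hours of LPS.

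The libraries held an estimated 18500000 to 20450000 mapped fragments, read from the step of low FPKM values. The smallest member value, 2.22 FPKM for Cd180, corresponds to about 120 fragments. For Ubl4a the early wild-type libraries gave 5.62 and 7.50 FPKM and the early GdX-deficient ones 4.03 and 5.69 FPKM, which overlap. At 6 h the wild-type libraries gave 11.9 and 14.0 FPKM and the GdX-deficient one 10.6 FPKM, below both. Gm44504, an entry that overlaps Ubl4a, lay between 0.66 and 1.86 FPKM in the GdX-deficient and between 14.5 and 51.1 FPKM in the wild-type libraries. GdX-deficient replicate 2 at 90 min stood apart from its partner: across 11378 genes its log2 values had a Pearson's r of 0.966 with the GdX-deficient 6 h library and 0.963 with replicate 1 at 90 min, whereas replicate 1 had 0.984 with replicate 2 of wild type at 90 min. Neutrophil markers summed to 4882 FPKM in it against 1111 FPKM in replicate 1. The GdX-deficient 6 h library had an r of 0.946 and 0.966 with the GdX-deficient 90 min libraries. Its r was 0.919 and 0.941 with wild type at 90 min, and 0.893 and 0.924 with wild type at 6 h. By this measure the only library of its group lay nearer to GdX-deficient spleen at 90 min than to wild type at 6 h. The share of globin genes in the summed FPKM of a library lay between 7.73% and 30.9%. In bulk tissue, fewer cells of a type and less RNA per cell cannot be told apart.

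**Figure D1:**
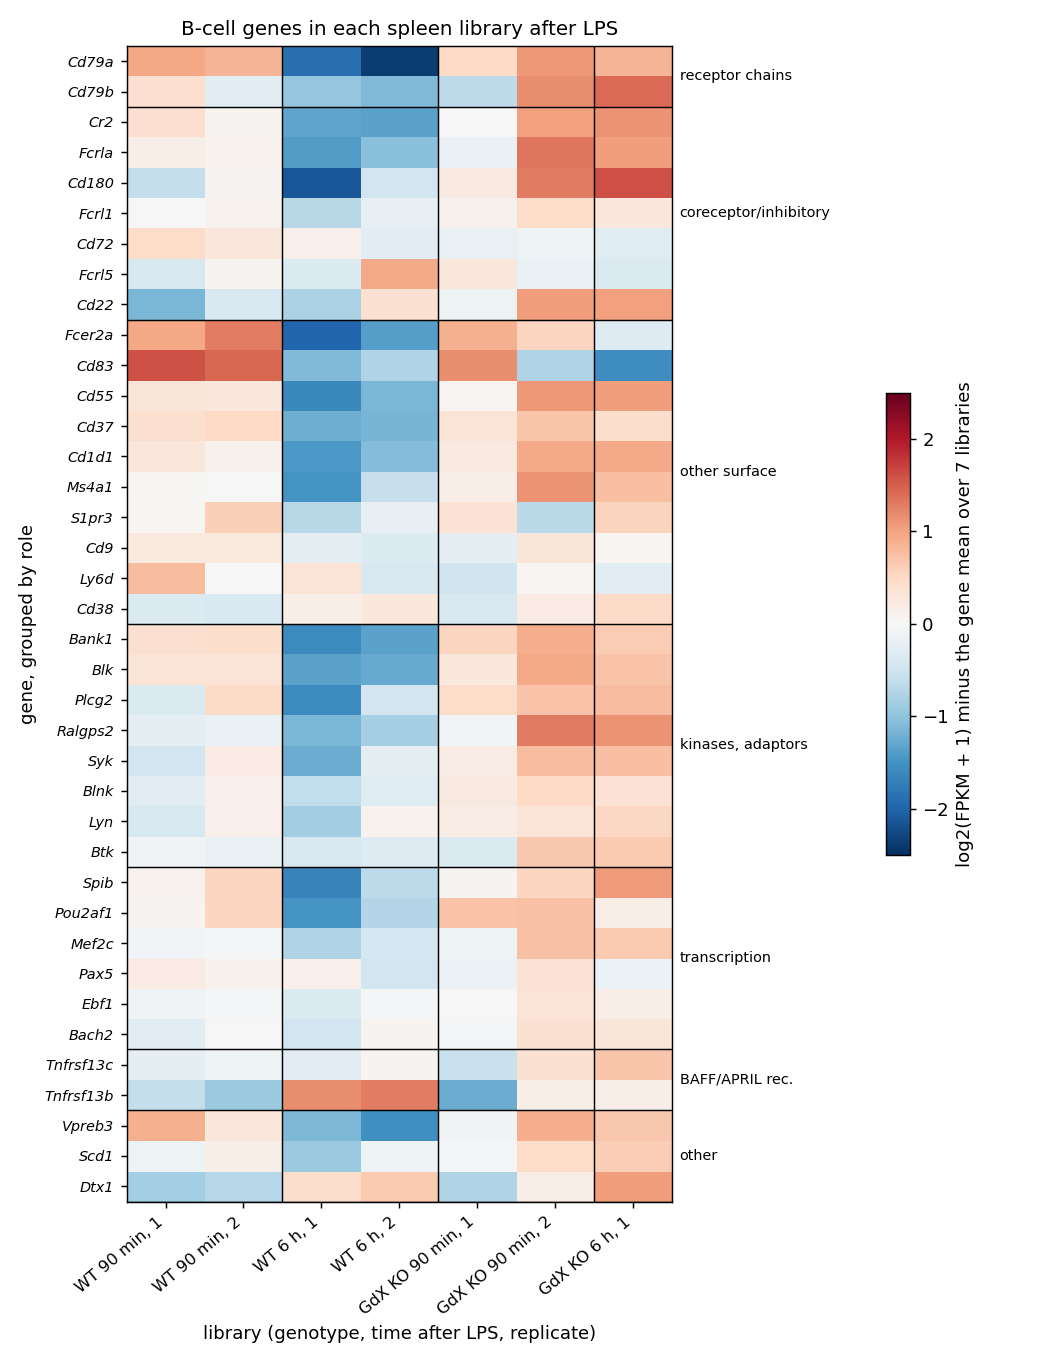
Heat map of the 38 B-cell genes (rows, grouped by role and ordered by their wild-type change within each) in the 7 spleen libraries (columns), coloured by log2(FPKM + 1) minus the mean of the gene over the libraries. Most rows are lowest in the wild-type 6 h libraries, while Tnfrsf13b is highest there, at 96.6 and 105 FPKM.

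In wild-type spleen, a large part of the B-cell programme was lower at 6 h than at 90 min after LPS. Cd79a fell about 8.18-fold and Fcer2a about 7.12-fold on the FPKM scale, whereas Pax5 and Ebf1, which specify the lineage, showed no change that passed the test. With limma on log2(FPKM + 1) and Benjamini-Hochberg adjustment over all 11378 genes at a threshold of 0.05, 12 of 38 members fell and 2 rose, against 6.32% and 4.39% of all genes tested (10.7% in either direction). An unadjusted p under 0.05 was reached by 17 members, and by 28.7% of all genes. The median log2 change was -0.68 over the members and 0.05 over all genes. Both 6 h libraries lay below both 90 min libraries for 24 members and above them for 3, where 27.6% and 30.3% of all genes did so.

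Of the 2 signalling chains of the receptor, 1 fell past the threshold, and the difference between them was not tested. Wild-type Cd79a stood at 724 and 667 FPKM early and 99.4 and 70.7 FPKM late (695.7 ± 40.2 against 85.1 ± 20.3 FPKM, SD, n = 2 each). The groups were far apart, with a log2 change of -3.04 (SE 0.30, limma adjusted p = 0.00128). Cd79b, its partner in the heterodimer, had 203 and 126 FPKM early, and late libraries of 76.6 and 69.3 FPKM. Its libraries did not overlap either, but the log2 change of -1.12 (SE 0.50, limma adjusted p = 0.178) did not pass the test. The ratio of Cd79a to Cd79b, looked at after the values were seen, was 3.57 and 5.29 at 90 min and 1.30 and 1.02 at 6 h.

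Among the coreceptor, inhibitory and related genes, 1 of 7 passed in wild type, Cr2, where 10.7% of all genes did. The counts of every role stand against 6.32% of all genes lower and 4.39% higher. Cr2 encodes CD21, a complement receptor, and stood at 42.2 and 32.8 FPKM at 90 min against 12.0 and 11.7 FPKM at 6 h (log2 change -1.58, SE 0.34, limma adjusted p = 0.0217). Fcrla, a B-cell Fc receptor-like protein, stood at 39.6 and 38.01 FPKM against 13.0 and 16.8 FPKM (-1.33, limma adjusted p = 0.0784). Cd22, the inhibitory sialic acid-binding lectin, stood at 33.7 and 58.0 FPKM at 90 min, then 43.5 and 99.95 FPKM at 6 h, with overlapping groups (0.57, limma adjusted p = 0.479). The log2 changes of the other 4 members of this role (Cd72, Fcrl1, Fcrl5 and Cd180) ran from -1.03 to 0.47 and did not pass.

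Of the 10 other surface proteins, 5 fell. Fcer2a, the low-affinity IgE receptor CD23, stood at 143 and 178 FPKM at 90 min, then 17.7 and 27.5 FPKM at 6 h (log2 change -2.80, SE 0.29, limma adjusted p = 0.00131). Cd83, an activation-induced immunoglobulin superfamily protein of B cells and dendritic cells, stood at 727 and 651 FPKM against 111 and 142 FPKM (-2.44, SE 0.51, limma adjusted p = 0.0193). The tetraspanin gene Cd37 stood at 336 and 361 FPKM against 108 and 113 FPKM (-1.64, SE 0.25, limma adjusted p = 0.00647), with the groups well apart. Cd55, a complement decay-accelerating factor, fell by 1.68 and Cd1d1, which presents lipid antigen to natural killer T cells, fell by 1.46 on the log2 scale. Ms4a1, which encodes CD20, stood at 163 and 161 FPKM at 90 min, then 55.9 and 107 FPKM at 6 h, below both earlier libraries but with a wide spread at 6 h (-1.06, limma adjusted p = 0.107).

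Of the 8 kinases, adaptors and related enzymes, 2 fell. Bank1, a scaffold of B-cell receptor signalling, stood at 57.2 and 58.6 FPKM at 90 min, then 13.6 and 16.4 FPKM at 6 h (log2 change -1.89, SE 0.26, limma adjusted p = 0.00422). Blk, a SRC-family kinase, stood at 58.9 and 59.4 FPKM against 17.7 and 18.9 FPKM (-1.64, SE 0.28, limma adjusted p = 0.00995). Replicates agreed closely for both. Btk, the kinase that activates phospholipase C gamma 2, stood at 22.8 and 21.5 FPKM at 90 min, then 18.1 and 19.2 FPKM at 6 h (-0.24, SE 0.34, limma adjusted p = 0.695), and the adaptor gene Blnk at 49.7 and 66.2 FPKM against 38.8 and 48.8 FPKM (-0.39, limma adjusted p = 0.370). Syk, the first kinase recruited to the phosphorylated chains, stood at 57.5 and 93.1 FPKM against 33.6 and 68.7 FPKM, with overlap between the times (-0.60, limma adjusted p = 0.345). Lyn (-0.24), Ralgps2 (-0.78) and Plcg2 (-1.09) did not pass.

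Of the 6 transcription factor and coactivator genes, 2 fell. Spib, an ETS factor that acts with PU.1 in B cells, stood at 77.0 and 105 FPKM at 90 min, then 22.1 and 45.6 FPKM at 6 h (log2 change -1.47, SE 0.36, limma adjusted p = 0.0332). Pou2af1, the octamer coactivator OBF-1, stood at 93.2 and 128 FPKM against 31.1 and 53.1 FPKM (-1.40, SE 0.31, limma adjusted p = 0.0217). Pax5 stood at 112 and 104 FPKM at 90 min, then 105 and 69.0 FPKM at 6 h (-0.33, SE 0.29, limma adjusted p = 0.502), and Ebf1 at 16.9 and 17.5 FPKM against 14.0 and 17.5 FPKM (-0.13, SE 0.27, limma adjusted p = 0.803). Both overlapped between the times. Mef2c (-0.54) and Bach2 (-0.09) did not pass.

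The 2 members that rose were Tnfrsf13b and Dtx1. Tnfrsf13b encodes TACI, a receptor for the survival factors BAFF and APRIL, and stood at 27.9 and 21.9 FPKM at 90 min, then 96.6 and 105 FPKM at 6 h, about 4.05-fold higher (log2 change 1.98, SE 0.40, limma adjusted p = 0.0178). Tnfrsf13c, which encodes the BAFF receptor, stood at 39.3 and 42.5 FPKM against 37.9 and 48.5 FPKM (0.07, SE 0.33, limma adjusted p = 0.919). Dtx1, a Notch-responsive ubiquitin ligase gene expressed in marginal zone B cells, stood at 25.9 and 28.5 FPKM against 64.8 and 74.8 FPKM (1.33, SE 0.32, limma adjusted p = 0.0314). Vpreb3, which encodes a chaperone-like protein of early and mature B cells, fell by 1.92 (SE 0.37, limma adjusted p = 0.0152). Scd1, a fatty acid desaturase gene, had a log2 change of -0.53 and did not pass.

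Marginal zone genes did not change in one direction. Of the 5, Cr2 and Cd1d1 fell, Dtx1 rose, and neither Cd9 nor S1pr3 passed. Cd9, a tetraspanin of marginal zone B cells that other spleen cells also express, stood at 60.1 and 59.9 FPKM at 90 min, then 42.7 and 39.8 FPKM at 6 h (log2 change -0.53, limma adjusted p = 0.220). S1pr3, a sphingosine phosphate receptor found on marginal zone B cells and endothelium, stood at 6.59 and 10.1 FPKM against 3.55 and 5.35 FPKM (-0.77, limma adjusted p = 0.240). The follicular gene of the list, Fcer2a, fell more than any of these, and no test compared the follicular with the marginal zone genes. The row Fcmr, which encodes the IgM Fc receptor of B cells and was not counted, stood at 155 and 191 FPKM at 90 min, then 20.0 and 30.6 FPKM at 6 h (-2.75, SE 0.33, limma adjusted p = 0.00228).

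Markers of several other spleen cells, but not all, were also lower in wild type at 6 h, where 6.32% of all genes fell. Of 10 T-cell markers tested, 6 fell, with a median log2 change of -1.15, and their summed level was 503 to 574 FPKM at 90 min, then 212.6 to 248.8 FPKM at 6 h. Of the red pulp macrophage markers 5 of 9 fell, of the dendritic cell markers 4 of 5, and of the erythroid markers 6 of 6. None of 10 neutrophil markers passed, with 5 positive and 5 negative changes. Of 5 plasma cell markers 1 fell, and of 5 endothelial markers 1 fell and 1 rose. The 38 B-cell genes summed to 4397 to 4840 FPKM at 90 min, then 2305 to 2315 FPKM at 6 h. No defining marker of these lists was at 0 in these libraries, and the part of other cell types in the B-cell changes was not tested. Of the 12 members that fell, 4 belong to the 15 that other spleen cells also express.

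**Figure D2:**
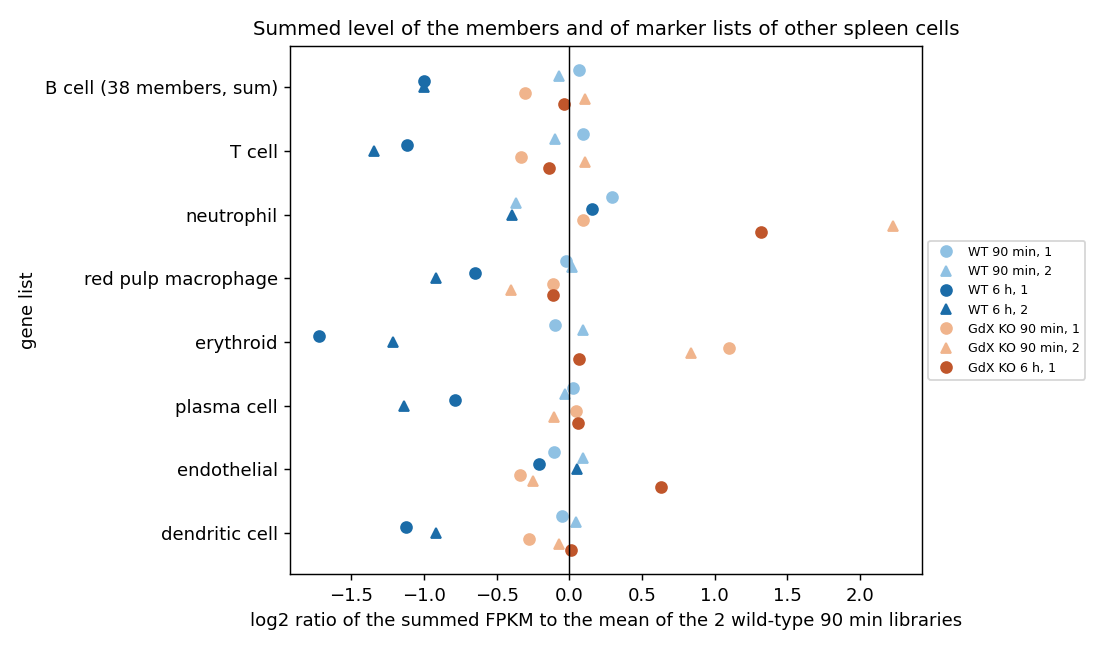
Summed FPKM of the 38 B-cell genes and of 7 marker lists in each library, as the log2 ratio to the mean of the 2 wild-type 90 min libraries (circles, replicate 1; triangles, replicate 2). In the wild-type 6 h libraries the B-cell sum was 2305 and 2315 FPKM, to the right of the T-cell sum at -1.11 and -1.34, whereas the GdX-deficient 6 h library lies at -0.03 for B cells and at 1.32 for neutrophils.

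Calls of Cd79a, Fcer2a, Cd37, Blk and Bank1 passed under all 16 alternative settings. The other 9 lost their call without a filter on low values, and Dtx1 also with quantile normalization (limma adjusted p = 0.0552) or after rescaling without globin genes (0.078). Spib missed the threshold after that rescaling too, with a log2 change of -1.58 (limma adjusted p = 0.0577), and kept its call with quantile normalization. In fits leaving out replicate 1 of wild type at 90 min, Cr2, Cd1d1 and Dtx1 lost theirs, and without replicate 2 Cd1d1, Dtx1, Pou2af1 and Spib. Spib lost it also without replicate 1 of wild type at 6 h, without either GdX-deficient 90 min library and in the fit of only the 4 libraries compared, in 7 of 16 alternatives in all. Other members gained a call in some fits. Fcrla passed in the fit of only the 4 libraries compared (limma adjusted p = 0.0267), without either GdX-deficient 90 min library, with the replicate block and when the second wild-type 6 h library was left out. Ms4a1, Plcg2 and Cd180 passed without that library and with the block, Syk without that library, and Cd22 and Fcrl5, both higher, without replicate 1 of wild type at 6 h.

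Promoters of 5 members, chosen after the values were seen, are shown because many members moved together: Cd79a, with the largest fall in wild type, Tnfrsf13b, with the largest rise, and Vpreb3, Cr2 and Cd37, which fell and hold a searched motif. Each line gives the 250 bases before the annotated start (RefSeq, GRCm38.p6), 5′ to 3′ on the strand of the gene. Capitals mark a match to the octamer ATTTGCAT, the EBF motif (TCCC, any 2 bases, GGGA), the PU.1 motif GAGGAAGT or the kappaB motif (GGGA, any 4 bases, CC), searched on both strands. The EBF motif is its own reverse complement, and EBF and kappaB matches can overlap.

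Cd79a (chr7:24897247-24897496, plus strand): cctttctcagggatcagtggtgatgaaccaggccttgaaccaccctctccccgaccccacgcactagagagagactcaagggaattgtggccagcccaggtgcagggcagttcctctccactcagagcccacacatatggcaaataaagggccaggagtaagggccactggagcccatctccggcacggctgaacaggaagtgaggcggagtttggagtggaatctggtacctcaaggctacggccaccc

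Vpreb3 (chr10:75948050-75948299, plus strand): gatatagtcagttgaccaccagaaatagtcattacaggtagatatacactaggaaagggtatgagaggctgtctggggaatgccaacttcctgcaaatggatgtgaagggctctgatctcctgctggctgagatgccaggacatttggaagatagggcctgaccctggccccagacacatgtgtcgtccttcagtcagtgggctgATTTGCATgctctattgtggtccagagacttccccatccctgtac

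Cr2 (chr1:195176720-195176969, minus strand): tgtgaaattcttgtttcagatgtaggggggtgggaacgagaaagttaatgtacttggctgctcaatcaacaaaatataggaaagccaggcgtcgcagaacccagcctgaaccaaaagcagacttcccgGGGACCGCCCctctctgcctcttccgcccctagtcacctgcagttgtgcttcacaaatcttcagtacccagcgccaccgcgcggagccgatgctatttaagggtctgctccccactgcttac

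Cd37 (chr7:45238840-45239089, minus strand): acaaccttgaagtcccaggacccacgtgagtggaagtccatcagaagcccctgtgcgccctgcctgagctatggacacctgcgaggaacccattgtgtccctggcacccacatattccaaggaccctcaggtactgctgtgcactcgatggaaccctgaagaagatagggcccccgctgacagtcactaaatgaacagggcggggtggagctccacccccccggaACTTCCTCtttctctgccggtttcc

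Tnfrsf13b (chr11:61126505-61126754, plus strand): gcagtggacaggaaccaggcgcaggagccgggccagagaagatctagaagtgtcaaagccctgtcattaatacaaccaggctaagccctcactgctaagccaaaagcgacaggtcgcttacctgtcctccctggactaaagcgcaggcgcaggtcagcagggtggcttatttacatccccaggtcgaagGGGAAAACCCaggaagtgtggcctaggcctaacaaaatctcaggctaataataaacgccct

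Of these windows Vpreb3 holds the octamer at -45, Cr2 a kappaB match at -122, Cd37 a PU.1 match at -25 and Tnfrsf13b a kappaB match at -61, counted from the annotated start as 1. Cd79a holds no exact match to any of the 4. A site with other letters would be missed, so the lack of a match does not show that a site is absent. RefSeq windows (250 bases before and 50 after the start) were found for 30 of the 38 members, with 38 windows in all. The octamer was in 2 of these 38 windows (Blnk and Vpreb3) and in 1.74% of all 32851, the EBF motif in 1 (Cd22) and 0.904%, the PU.1 motif in 3 (Cd37, Cd72 and Fcrl1) and 3.2%, and the kappaB motif in 10 and 20.7%. A match describes letters only, and members that fell, rose or did neither were among those with a kappaB match.

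At 90 min, no B-cell gene differed between genotypes past the threshold. Limma called 0 of 38 members, against 2 of all genes tested (0.0176%). These 2 were the beta-globin genes Hbb-b1 and Hbb-b2, higher without GdX by 11.7 and 10.9 on the log2 scale. At 6 h their differences were 11 and 10.2. Whether the genotypes differ at loci other than Ubl4a was not tested. An unadjusted p under 0.05 was reached by 2 members, Cd22 and Cd83, and by 7.58% of all genes. Of the members 28 had a positive difference (56.5% of all genes), 10 had both GdX-deficient libraries above both wild-type ones (24.1%) and 3 below (23.4%). The median log2 difference, GdX-deficient minus wild type, was 0.26 over the members and 0.07 over all genes. Cd22 had 33.7 and 58.0 FPKM in the wild-type libraries and 69.4 and 158 FPKM in the others, higher in both GdX-deficient libraries (log2 difference 1.22, SE 0.48, limma adjusted p = 0.621). Cd83 stood at 539 and 142 FPKM against 727 and 651 FPKM (-1.31, SE 0.51, limma adjusted p = 0.621). In a fit of only the 4 libraries compared, Cd22 passed (limma adjusted p = 0.0492), as did 1.59% of all genes, and it passed without either wild-type 6 h library (1.52% and 1.61% of all genes).

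The 2 GdX-deficient libraries at 90 min differed widely from each other. Cd79a stood at 526 FPKM in replicate 1 and 789 FPKM in replicate 2, Cd79b at 94.8 and 336 FPKM, Cr2 at 31.5 and 64.2 FPKM, and Ms4a1 at 178 and 348 FPKM. In each of these replicate 2 was the higher and lay above both wild-type libraries, while replicate 1 lay below both for the first 3. Without replicate 2 the median log2 difference of the members was -0.0596, and without replicate 1 it was 0.53, so the direction at 90 min depended on this pair.

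At 6 h, B-cell genes were higher in the single GdX-deficient library than in wild type. Its spread was taken from the 3 groups of 2 libraries, on the assumption that it varies like them, and the group has no replicate check. The comparison shares the wild-type 6 h libraries with the wild-type time comparison, so the 2 are not independent. In this fit 11 of 38 members were higher and 0 lower, against 2.91% and 1.05% of all genes tested (3.96% in either direction). The median log2 difference was 1.23 over the members and 0.32 over all genes. The GdX-deficient library lay above both wild-type libraries for 32 members and below both for 4, where 54.9% and 25.3% of all genes did so. A positive difference was found for 33 members and 66.2% of all genes, and an unadjusted p under 0.05 for 22 and 28.4%.

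Cd79a stood at 667 FPKM without GdX against wild-type values of 99.4 and 70.7 FPKM, 7.84-fold higher (log2 difference 2.98, SE 0.37, limma adjusted p = 0.00807). Cd79b stood at 404 FPKM against 76.6 and 69.3 FPKM (2.46, SE 0.62, limma adjusted p = 0.0561) and did not pass. It passed in each of the 6 fits that left out 1 library (limma adjusted p from 0.00167 to 0.0338), and also after rescaling without globin genes, with the replicate block and with a length trend removed. Among the coreceptor, inhibitory and related genes 3 of 7 were higher, where 2.91% of all genes were. Cr2 stood at 69.6 FPKM against 12.0 and 11.7 FPKM (2.46, SE 0.42, limma adjusted p = 0.0246). Cd180, a Toll-like receptor homologue that modulates LPS responses of B cells, stood at 41.9 FPKM against 2.22 and 9.08 FPKM (2.91, SE 0.67, limma adjusted p = 0.0474), and Fcrla stood at 74.6 FPKM against 13.0 and 16.8 FPKM (2.26, limma adjusted p = 0.0480). The wild-type pair differed widely for Cd180, whose call was lost in 8 of 14 alternatives (limma adjusted p up to 0.136): without either GdX-deficient 90 min library, with another pseudocount, without or with a stricter filter, with quantile normalization, without globin genes and with no variance trend. The call of Fcrla was lost in 5 of 14 (up to 0.13), namely with another pseudocount, without or with a stricter filter, with quantile normalization and with no variance trend.

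Cd55 (log2 difference 2.43, limma adjusted p = 0.0275), Cd1d1 (2.20, 0.0275) and Cd37 (1.63, 0.0311) were the higher members among the other 10 surface proteins. Cd1d1 stood at 24.5 FPKM against 3.92 and 5.28 FPKM, and Cd37 at 345 FPKM against 108 and 113 FPKM. Fcer2a stood at 57.6 FPKM against 17.7 and 27.5 FPKM, above both, and did not pass (1.35, SE 0.35, limma adjusted p = 0.0601). Ms4a1 stood at 270 FPKM against 55.9 and 107 FPKM (1.79, limma adjusted p = 0.0596). Without any 1 of the 4 wild-type libraries Ms4a1 passed, and Fcer2a passed without replicate 2 of wild type at 6 h or either wild-type 90 min library. Cd9 stood at 52.4 FPKM (0.34), S1pr3 at 9.87 FPKM (1.02) and Cd83 at 81.2 FPKM (-0.63), and none of these passed.

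Among kinases and adaptors, Bank1 stood at 67.4 FPKM against 13.6 and 16.4 FPKM (log2 difference 2.10, SE 0.31, limma adjusted p = 0.0163), and Blk at 77.1 FPKM against 17.7 and 18.9 FPKM (2.01, SE 0.34, limma adjusted p = 0.0246). Syk stood at 137 FPKM (1.49, limma adjusted p = 0.0922), Btk at 38.9 FPKM (1.02, 0.146) and Blnk at 77.5 FPKM (0.82, 0.143), each above both wild-type libraries without passing. Syk passed without replicate 2 of wild type at 6 h or either wild-type 90 min library. Ralgps2 stood at 31.2 FPKM against 5.67 and 7.35 FPKM (2.11, limma adjusted p = 0.0528). Plcg2 stood at 43.4 FPKM against 7.68 and 17.7 FPKM (1.80, limma adjusted p = 0.0661). Neither passed, though both did with the replicate block and with a length trend removed. Spib was the higher member among 6 transcription factor genes, at 153 FPKM against 22.1 and 45.6 FPKM (2.23, SE 0.44, limma adjusted p = 0.0350). Pax5 stood at 86.9 FPKM, between the wild-type libraries at 105 and 69.0 FPKM (0.03, SE 0.36), and Ebf1 at 20.1 FPKM (0.34, SE 0.33). Vpreb3 stood at 47.6 FPKM against 13.0 and 9.52 FPKM (2.00, limma adjusted p = 0.0463), a call lost in 4 of 14 alternatives: without or with a stricter filter, with quantile normalization and with no variance trend. Tnfrsf13b lay the other way, at 47.4 FPKM against 96.6 and 105 FPKM (-1.07, SE 0.50, limma adjusted p = 0.190), and Tnfrsf13c stood at 75.4 FPKM against 37.9 and 48.5 FPKM (0.80, limma adjusted p = 0.224). Fcmr stood at 263 FPKM against 20.0 and 30.6 FPKM (3.36, SE 0.40, limma adjusted p = 0.00776).

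**Figure D3:**
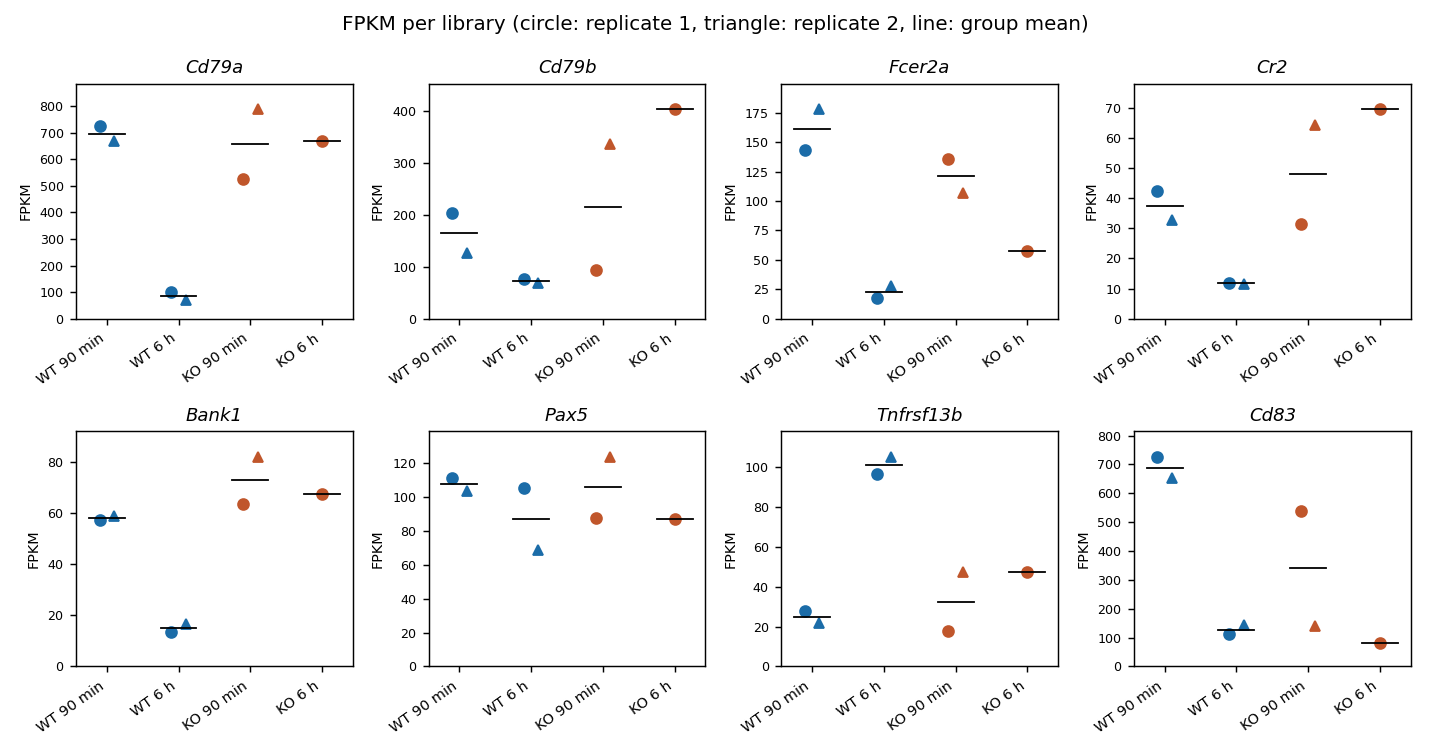
FPKM of 8 B-cell genes in each library (circle, replicate 1; triangle, replicate 2; line, group mean; each axis starts at 0), with wild type in blue and GdX-deficient in orange. Cd79a, Cr2 and Bank1 are low only in the wild-type 6 h libraries, Tnfrsf13b is highest there at 96.6 and 105 FPKM, and Cd83 is low in GdX-deficient replicate 2 at 90 min as well as in the 6 h libraries.

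Several other cell types differed in the same comparison. Of the T-cell markers 3 of 10 were higher without GdX, of the red pulp macrophage markers 3 of 9, of the erythroid markers 5 of 6 and of the dendritic cell markers 1 of 5. None of 5 plasma cell and 5 endothelial markers was called, and 2.91% of all genes were higher. T-cell markers summed to 488.5 FPKM in the GdX-deficient library against 212.6 to 248.8 FPKM in wild type. Neutrophil markers summed to 2603 FPKM against 795 to 1161 FPKM, with none of 10 past the threshold. Their part in the B-cell differences was not tested. Without a filter on low values no member passed at 6 h (limma adjusted p from 0.0511 to 0.136 for the 11), and 0.502% of all genes did. Leaving out replicate 2 of wild type at 6 h gave 22 members and 26.7% of all genes, and leaving out replicate 1 or 2 of wild type at 90 min gave 17 members each and 7.28% or 7.37% of all genes, so the calls over all genes rose with those of the members.

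In GdX-deficient spleen, no member changed between 90 min and 6 h past the threshold. Limma called 0 of 38 members, against 0% of all genes tested, with 3 members at an unadjusted p under 0.05 (8% of all genes), namely Dtx1, Fcer2a and Cd83. A positive change was found for 27 members and 75.1% of all genes. The 6 h library lay above both 90 min libraries for 12 members (56.8%) and below both for 6 (15.8%). The median log2 change was 0.25 over the members and 0.25 over all genes. Without replicate 1 at 90 min the members' median was -0.115, and without replicate 2 it was 0.51, so its direction depended on this pair. Dtx1 stood at 27.9 and 53.3 FPKM at 90 min, then 99.1 FPKM at 6 h (1.34, SE 0.39, limma adjusted p = 0.304), next to 1.33 in wild type. Fcer2a stood at 135 and 106 FPKM against 57.6 FPKM (-1.05, SE 0.35, limma adjusted p = 0.415), next to -2.80 in wild type. Cd79a stood at 526 and 789 FPKM against 667 FPKM (0.05, SE 0.37, limma adjusted p = 0.973), next to -3.04. Cd83 (-1.76) and Dtx1 passed without either of the wild-type 6 h libraries, which enter only through the spread (2.03% and 2.07% of all genes then passed).

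**Figure D4:**
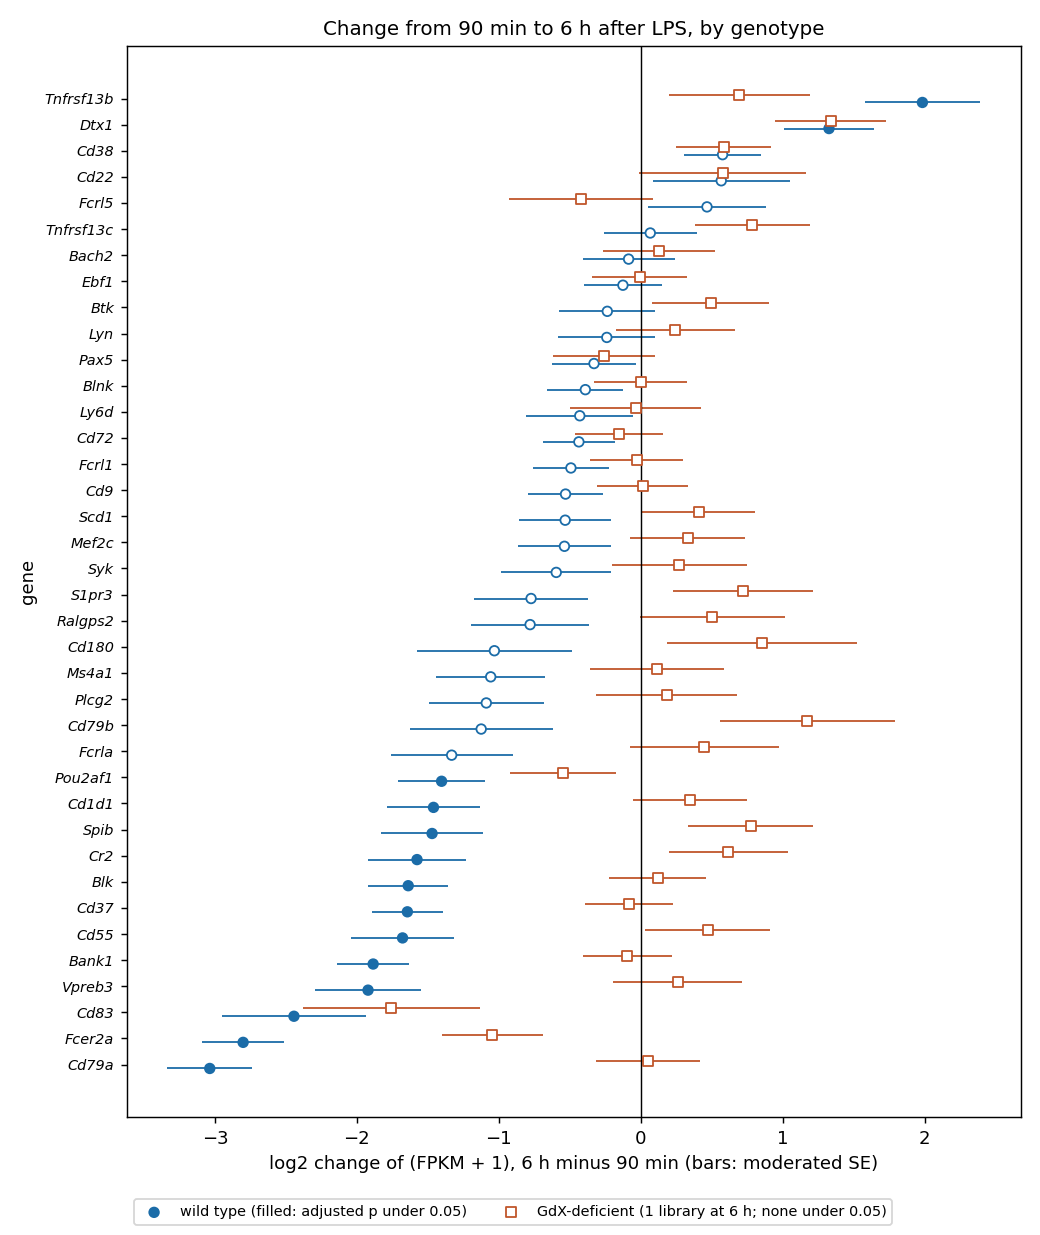
Log2 change of each of the 38 genes from 90 min to 6 h in wild type (blue circles, filled where the limma adjusted p is under 0.05) and in GdX-deficient spleen (orange squares), with moderated SE as bars. Cd79a lies at -3.04 in wild type and 0.05 in GdX-deficient spleen, while Dtx1 lies at 1.33 and 1.34.

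Whether the change from 90 min to 6 h differed between genotypes was tested as the interaction in the same fit, again with 1 library for the GdX-deficient group at 6 h. Limma called 0 of 38 members, against 0.0703% of all genes tested (0.0352% higher and 0.0352% lower), and 13 members had an unadjusted p under 0.05, as did 9.98% of all genes. The median difference of the changes was 0.87 over the members and 0.19 over all genes, and 36 of 38 were positive, as were 64.2% of all genes. Markers of other cell types had medians as high or higher: 1.10 for T cells (10 of 10 positive), 1.26 for red pulp macrophages (9 of 9), 1.23 for dendritic cells (5 of 5), 1.17 for erythroid cells (6 of 6), 1.16 for endothelium (5 of 5) and 0.89 for plasma cells (5 of 5). The median of the neutrophil markers was 0.19 (7 of 10). Among these markers 1 was called, the macrophage gene Cd5l (3.15, SE 0.41, limma adjusted p = 0.0430), and the part of these cell types in the B-cell values was not tested. Cd79a had the smallest adjusted p, with a difference of 3.09 (SE 0.47, limma adjusted p = 0.0695), followed by Bank1 at 1.79 (SE 0.40, limma adjusted p = 0.143). Spib stood at 2.24 and Cr2 at 2.19, and Dtx1 at 0.01. Cd79a passed in each fit that left out 1 wild-type library (limma adjusted p from 0.000229 to 0.0292) and in neither fit that left out a GdX-deficient 90 min library. Without replicate 2 of wild type at 6 h 9 members and 2.09% of all genes passed, and without replicate 1 there 3 members and 1.49% did.

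Of 25 further B-cell receptor signalling genes that were not among the 38, 1 rose and 3 fell in wild type between 90 min and 6 h, 2 were higher without GdX at 6 h, and none was called at 90 min, in GdX-deficient spleen over time or in the interaction. Siglecg, which encodes an inhibitory lectin of B cells, had wild-type values of 36.0 and 47.3 FPKM early and 6.66 and 10.9 FPKM late (log2 change -2.15, SE 0.39, limma adjusted p = 0.0116), and 82.9 FPKM late without GdX (3.14, SE 0.47, limma adjusted p = 0.0163). Inpp5d, the inositol phosphatase SHIP-1, fell by 1.18 in wild type. Fcgr2b, the inhibitory Fc receptor, rose by 1.42 in wild type (limma adjusted p = 0.0155), from 30.4 and 31.1 FPKM to 72.8 and 96.7 FPKM. Dok3, an inhibitory adaptor, fell by 1.51 in wild type (limma adjusted p = 0.0443) and had 112 FPKM late without GdX against wild-type values of 15.5 and 16.5 FPKM (2.74, limma adjusted p = 0.0275). Of 14 further B-cell transcription factor genes, 1 fell in wild type, Id3 (-1.16, limma adjusted p = 0.0201). Of all genes 6.32% fell and 4.39% rose in wild type and 2.91% were higher at 6 h, so counts this small are near the background. The 25 signalling genes had a median log2 change of -0.56 in wild type (0.05 over all genes), with 5 positive (53.1%). At 6 h their median difference was 0.91 (0.32 over all genes), with 24 positive (66.2%). For the 14 transcription factor genes these medians were -0.34 and 0.52, with 4 and 9 positive. None of 5 homing receptor and recirculation genes passed in any comparison.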

How the data were processed

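Per the file headers, the authors deposited FPKM values, with each library in its own column. The submitters' processing notes name HISAT, HISAT2 2.0.4, Bowtie2 and RSEM with the build GRCm38.p5, without their roles, and the extract protocol names a BGISEQ-500 instrument. Genes averaging at least 1 FPKM over 7 libraries (11378) were fitted as log2(FPKM + 1) with limma 3.58.1 in R 4.3.3 (4 group means, empirical Bayes with a trend, 3 residual degrees of freedom). P-values are two-sided with Benjamini-Hochberg adjustment. Fold changes on this log2 scale understate those of low genes. The single GdX-deficient 6 h library adds nothing to the spread. Depth was estimated from 179 to 224 low genes per library with 1 listed transcript. The members and lists were chosen with earlier results of these data known. Every member could be named. Per-library values were given for 16 members whatever their values and for those with the smallest p in each role, and from each other list for up to 2 higher and 2 lower calls. Fcmr and the 2 beta-globin genes fell outside this rule. Marker lists covered T cells, neutrophils, red pulp macrophages, erythroid, plasma, endothelial and dendritic cells. Alternatives were another pseudocount or filter, quantile normalization, rescaling without globin genes, a replicate block, no trend, leaving out each library, a fit of the 4 libraries compared and, chosen after seeing the data, removal of a trend on transcript length.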

Additional observations from a re-analysis of the deposited data

How the results depend on the processing

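The number of members called in wild type over time was 14 and stayed within 1.5 times of it under every alternative except no filter on low values (5, and 3.54% of all genes against 10.7%). At 6 h between genotypes it was 11, with 0 without a filter, 24 with the replicate block and 17 with a length trend removed, while the share of all genes called went from 3.96% to 0.502%, 29.7% and 10.8%. The interaction called 0 members, 2 with the replicate block (Cd79a and Spib; 0.703% of all genes) and 1 with a length trend removed (Cd79a; 0.564%). At 90 min between genotypes the count was 0, and 1 in the fit of only the 4 libraries compared (1.59% of all genes). The cause of these moves was not tested. Leaving out 1 library gave 10 to 19 members in wild type over time (3.96% to 15.6% of all genes), 0 to 1 between genotypes at 90 min (0.0176% to 1.61%), 12 to 22 at 6 h (5.51% to 26.7%), 0 to 2 in GdX-deficient spleen over time (0% to 2.07%) and 0 to 9 in the interaction (0% to 2.09%). The libraries of each group share replicate numbers. The replicate 1 deviations had a correlation of 0.768 between wild type at 90 min and wild type at 6 h. With the GdX-deficient 90 min group it was -0.12 for wild type at 90 min and 0.0797 for wild type at 6 h. Replicate numbers thus went with a shared deviation within wild type, and whether they pair those samples was not tested. With the replicate block, 18 members and 20.6% of all genes passed in wild type over time, against 14 and 10.7%. The block changed no other member count by over 1.5 times.

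Quantile normalization moved the median of all genes at 6 h from 0.32 to -0.02, and the members called to 8, all higher. Rescaling without globin genes moved it to 0.55. No called member changed direction under any alternative. Members without a call did: in wild type over time Tnfrsf13c went to -0.0527 with quantile normalization and -0.046 without globin genes, and Bach2 to 0.0129 with a length trend removed. At 6 h Cd72 went to 0.0833 and 0.0358 and Ly6d to 0.0697 and 0.0433 with those normalizations, Ly6d to 0.24 with a length trend removed, and Pax5 to -0.0101 with the replicate block and -0.37 with a length trend removed. Leaving out 1 library, wild-type changes over time ran from -0.0238 to 1.16 for Cd22, -0.18 to 1.11 for Fcrl5, -0.72 to 0.24 for Lyn, -0.27 to 0.0234 for Ebf1, -0.36 to 0.18 for Bach2 and -0.11 to 0.24 for Tnfrsf13c. The 6 h differences ran from -0.61 to 0.14 for Ly6d and -0.28 to 0.33 for Pax5. By the estimated depth each member had at least about 120 fragments in every library, and the effect of depth on the calls was not tested.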

Other observations

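Among the marker lists not described singly, endothelial markers gave 1 higher and 1 lower call of 5 in wild type between 90 min and 6 h. Egfl7, an endothelial secreted factor gene, rose from 10.7 and 8.22 FPKM to 28.2 and 19.4 FPKM (log2 change 1.23, limma adjusted p = 0.0375), and Tie1, an endothelial receptor kinase gene, fell from 5.98 and 7.93 FPKM to 1.90 and 3.01 FPKM (-1.21, limma adjusted p = 0.0418). Mzb1, an endoplasmic reticulum protein gene of plasma cells and marginal zone B cells, was the plasma cell marker that fell, from 126 and 85.9 FPKM to 54.7 and 36.0 FPKM (-1.21, limma adjusted p = 0.0345).

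The ratio of Tnfrsf13b to Tnfrsf13c, looked at after the values were seen, was 0.710 and 0.516 in wild type at 90 min and 2.55 and 2.17 at 6 h. It was 0.566 and 0.785 in GdX-deficient spleen at 90 min and 0.629 in the GdX-deficient library at 6 h. The ratio of Cd79a to Cd79b was 5.55 and 2.35 in GdX-deficient spleen at 90 min and 1.65 at 6 h.

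As a ratio, the wild-type libraries at 6 h differed most for Cd180 among the members, at 2.22 and 9.08 FPKM, while Cr2 (12.0 and 11.7 FPKM), Blk (17.7 and 18.9 FPKM) and Cd37 (108 and 113 FPKM) agreed closely.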
